A study of Mus musculus with 9 samples.

Results

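Transcripts of the skeletal muscle contractile apparatus were followed on 9 arrays in inguinal white adipose tissue, a pad of subcutaneous fat that lies in the groin. The set is 34 genes listed by name for their known place in the muscle fibre, and earlier results of these data were known when it was chosen. All 34 had exactly 1 row under their own symbol, among 30142 genes so named, and 30 of them were bright enough on average to be among the 16639 genes tested. Myh7, Tnni1, Casq2 and Sln were not, and their values are given as description.

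The 3 groups held 3 arrays each. Control mice carried Adiponectin-rtTA, TRE-Cre and Zfp423+/+ and stayed at room temperature. Knockout mice carried Adiponectin-rtTA, Tre-CRE and Zfp423loxP/loxP, a doxycycline-inducible deletion of the zinc finger factor Zfp423, and also stayed at room temperature. The cold group had the control genotype and spent its last 14 days at 6 °C. All mice ate doxycycline chow for 28 days, starting at 8 weeks of age, so that the controls carried the rtTA and Cre transgenes and the drug as well. The Adiponectin promoter drives rtTA in adipocytes, so the deletion was aimed at those cells and not at muscle fibres or the other cells of the pad. The study asked how far fat lacking Zfp423 resembles cold-induced beige fat. The labels do not say if each array had its own mouse, so every p-value reflects the spread among these arrays, which may be partly technical.

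A muscle fibre shortens when myosin heads of the thick filament pull on actin in the thin filament. Calcium released from the sarcoplasmic reticulum starts the cycle by binding troponin, and a calcium pump ends it by taking the calcium back. Fast fibres and slow fibres build the same machine from different isoforms of myosin, troponin and the pump, and adult mouse limb muscle is mostly fast. Adipocytes make little or none of this machinery, and whole pads dissected from the groin lie against muscle of the thigh and abdominal wall. In whole tissue, more muscle in the sample and more of these transcripts per cell cannot be told apart.

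Some facts of the whole series touch the results. Zfp423 stood at log2 values of 8.74, 8.22 and 8.40 in control replicates 1 to 3, at 7.56, 8.15 and 8.04 in knockout and at 8.83, 8.72 and 8.40 in cold. The knockout arrays were all below the controls, and the difference of -0.53 ± 0.20 (SE) did not pass (limma adjusted p = 0.254), so the targeted gene is a weak check of the labels. Ucp1, the uncoupling protein of thermogenic fat, lay between 11.74 and 13.07 in control, 18.34 and 19.92 in knockout and 18.86 and 19.18 in cold. Within every group, 1 array often took the middle place among the 3: control replicate 3 did so for 52.8% of tested genes, knockout replicate 3 for 62% and cold replicate 2 for 42%. Why was not tested, and the results are also given without these arrays. Cold replicate 3 stood apart for the contractile genes. Its description label is also written differently from the other 8, with an extra character before the array name whose meaning is not stated. Whether the array was handled differently was not tested, and the comparisons that use it are given with and without it.

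Fast myosin and the fast calcium pump showed the pattern most plainly. Myh4, the heavy chain of the fastest fibres, had log2 values of 15.20, 15.74 and 15.47 in control replicates 1 to 3, 13.72, 16.26 and 15.32 in knockout, and 15.92, 14.56 and 7.12 in cold. Atp2a1, the fast-fibre pump that returns calcium to the sarcoplasmic reticulum, had 13.23, 13.65 and 13.46 in control, 11.49, 14.01 and 13.14 in knockout, and 14.09, 12.69 and 5.98 in cold. In both genes cold replicate 3 was far below every other array, knockout replicate 1 was the lowest of the remaining 8, and the 3 groups overlapped. Set against the mean of the other 2 cold arrays, the log2 difference of cold replicate 3 was -8.11 for Myh4 and -7.41 for Atp2a1. How far the lowest readings lay above background is not known, so no fold is given.

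The thin filament and the giant proteins of the sarcomere moved with them. Acta1, skeletal muscle actin, stood at 14.55, 15.30 and 15.06 in control, 12.95, 14.72 and 14.02 in knockout, and 14.90, 13.80 and 9.49 in cold. Ttn, the molecular spring that spans from Z-disc to thick filament, stood at 11.55, 12.28 and 11.92 in control, 9.92, 12.34 and 11.42 in knockout, and 12.11, 10.71 and 6.16 in cold. Neb, nebulin, which runs along the thin filament, stood at 11.22, 11.85 and 11.40 in control, 9.60, 12.28 and 11.27 in knockout, and 12.15, 10.82 and 6.05 in cold. Each gene was again lowest on cold replicate 3, next lowest on knockout replicate 1 and overlapping between groups. The log2 difference of cold replicate 3 from the mean of the other 2 cold arrays was -4.86 for Acta1, -5.25 for Ttn and -5.44 for Neb.

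Promoter sequences of genes that varied together, and of the slow-fibre gene Myh7, were read from RefSeq promoter tables (GRCm38.p6), which matched 26 of the 34 genes. Myh7 was too dim to test, so whether it varied with the others cannot be told. Each run below is the 250 bases upstream of the annotated start, written 5′ to 3′ on the gene's own strand. Capitals mark matches on either strand to CANNTG (the E-box, the site of MyoD-type factors), TATAAA (the TATA box), the MEF2 box and the CArG box (the site of serum response factor). Myh4 lies at chr11:67237562-67237811 on the plus strand, Acta1 at chr8:123894776-123895025, Ttn at chr2:76982548-76982797 and Myh7 at chr14:54994627-54994876, these 3 on the minus strand.
Myh4: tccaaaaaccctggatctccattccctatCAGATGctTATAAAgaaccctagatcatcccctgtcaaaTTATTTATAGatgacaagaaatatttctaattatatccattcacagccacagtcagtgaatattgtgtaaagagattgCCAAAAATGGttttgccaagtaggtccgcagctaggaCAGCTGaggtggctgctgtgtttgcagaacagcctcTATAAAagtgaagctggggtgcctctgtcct
Acta1: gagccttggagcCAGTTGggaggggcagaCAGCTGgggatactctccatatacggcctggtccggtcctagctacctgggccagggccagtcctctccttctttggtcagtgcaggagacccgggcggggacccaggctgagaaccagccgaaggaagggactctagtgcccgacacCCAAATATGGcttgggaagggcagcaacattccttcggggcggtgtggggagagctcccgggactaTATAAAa
Ttn: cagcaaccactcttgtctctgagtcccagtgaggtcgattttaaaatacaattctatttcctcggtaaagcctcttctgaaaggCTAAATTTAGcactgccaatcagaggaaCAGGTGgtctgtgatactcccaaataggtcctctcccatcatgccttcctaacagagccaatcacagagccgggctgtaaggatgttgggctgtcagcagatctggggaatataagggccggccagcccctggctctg
Myh7: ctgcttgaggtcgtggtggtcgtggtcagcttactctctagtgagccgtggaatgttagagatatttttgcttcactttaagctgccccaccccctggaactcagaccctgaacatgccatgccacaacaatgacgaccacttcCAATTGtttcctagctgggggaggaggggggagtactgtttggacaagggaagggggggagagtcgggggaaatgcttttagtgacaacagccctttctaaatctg
The Myh4 window held 2 E-boxes, 3 TATAAA matches, 1 MEF2 box and 1 CArG box, and 1 of its TATAAA matches overlaps the MEF2 box. Acta1 held 2 E-boxes, 1 TATAAA match and 1 CArG box, Ttn held 1 E-box and 1 MEF2 box, and Myh7 held 1 E-box. Over the matched contractile genes, 21 of 26 windows (80.8%) held an E-box, against 66% of 27025 windows of all genes. A MEF2 box was in 5 (19.2%) against 3.01%, a TATAAA match in 5 (19.2%) against 13%, and a CArG box in 3 (11.5%) against 1.4%. By fibre class, a MEF2 box was in 3 of 10 fast, 1 of 6 slow and 1 of 10 shared windows. These are matches of letters, and no binding was measured.

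**Figure D1:**
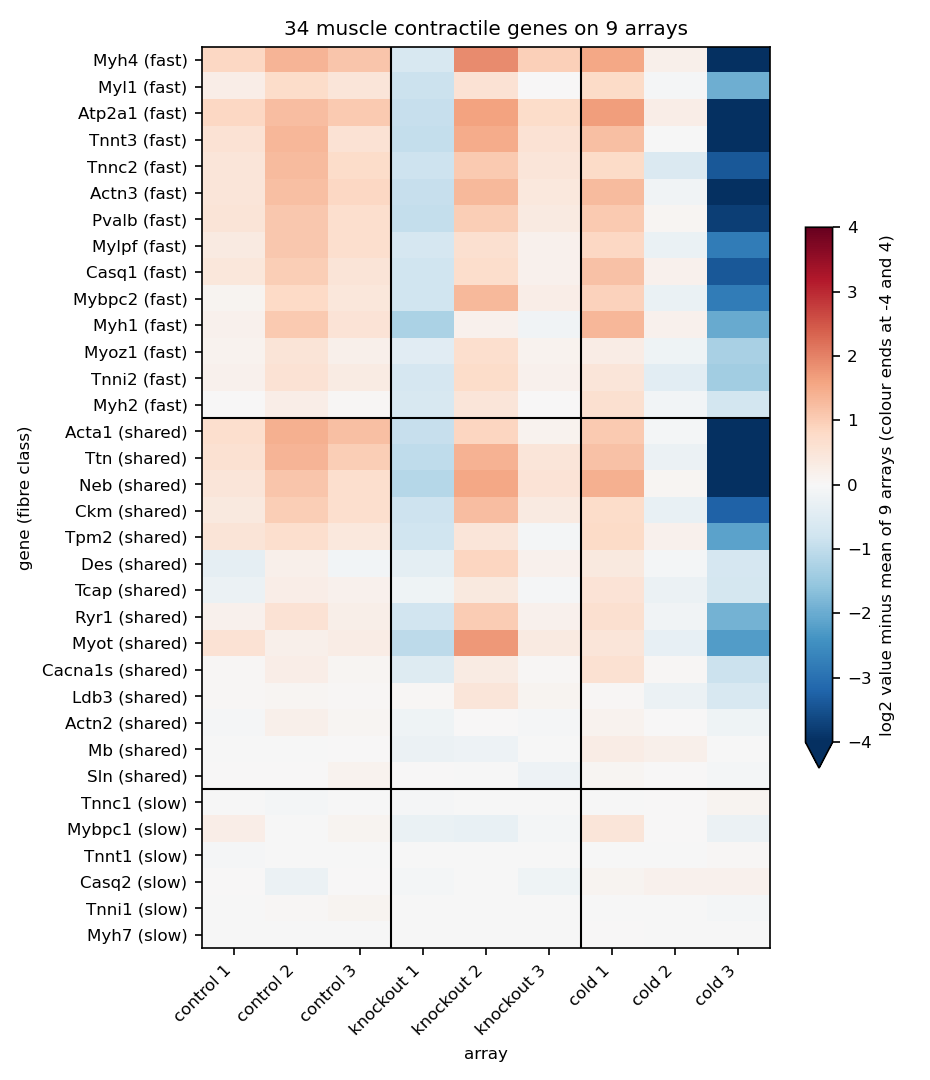
Each row is 1 of the 34 genes and each column 1 array, grouped as control, knockout and cold, and colour is the log2 value minus the gene's mean of 9 arrays, with the scale ending at -4 and 4. Fast-fibre genes (top block) and most shared genes (middle block) are lowest on cold replicate 3 and next lowest on knockout replicate 1, and slow-fibre genes (bottom block) show little colour.

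The heat map of all 34 genes sorts them by fibre class. Of the 30 tested, 14 are fast-fibre genes, 13 are shared between fibre types and 3 are slow-fibre genes (of 6 listed). Cold replicate 3 was the lowest of the 9 arrays for 25 of the 30 genes (83.3%) and for 14 of 14 fast ones, against 13.2% of all tested genes. With that array set aside, knockout replicate 1 was the lowest of the other 8 for 25 of 30 genes and again for 14 of 14 fast ones, against 18.6% of all tested genes. The highest array was less fixed: knockout replicate 2 for 13 genes, cold replicate 1 for 10 and control replicate 2 for 5.

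The order of arrays within a group was also shared. Control replicate 2 was the highest control for 25 of 30 genes, knockout replicate 2 the highest knockout for 26 and cold replicate 1 the highest cold array for 28. The 14 fast genes kept a single order in every group, with control replicate 3, knockout replicate 3 and cold replicate 2 in the middle each time. These are the same arrays that lay between the others for many genes of the series. Knockout replicate 2 exceeded knockout replicate 1 by a median of 1.69 log2 units over the fast genes, and control replicate 2 exceeded control replicate 1 by a median of 0.55.

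The spread inside groups was wide. The residual SD around the group means had a median of 1.03 log2 units over the 30 genes, against 0.14 over all tested genes, and 23 of the 30 were among the widest 5% of genes. Group by group, the median SD of the contractile genes was 0.25 in control, 0.74 in knockout and 1.47 in cold, against 0.11, 0.14 and 0.08 over all genes. By range over the 9 arrays, 14 of the 30 were among the top 100 genes and 18 among the top 500. Without cold replicate 3 these counts were 0 and 8.

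Troponin, the calcium switch of the thin filament, comes in fast and slow forms of each subunit. Tnnt3, the fast subunit that ties the complex to tropomyosin, had 12.58, 13.35 and 12.59 in control, 11.05, 13.49 and 12.59 in knockout, and 13.23, 12.01 and 7.24 in cold. Its slow counterpart Tnnt1 had 5.42, 5.45 and 5.45 in control, 5.45 on each of the 3 knockout arrays, and 5.45, 5.45 and 5.51 in cold. Tnnt3 was lowest on cold replicate 3, whereas Tnnt1 varied by only 0.10 over the 9 arrays and was highest there.

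Tnnc2, the fast subunit that binds calcium, had 11.55, 12.35 and 11.82 in control, 10.25, 12.13 and 11.55 in knockout, and 11.83, 10.51 and 7.67 in cold. Tnnc1, its slow and cardiac counterpart, stayed between 5.47 and 5.64. Tnni2, the fast inhibitory subunit, had 7.04, 7.47 and 7.22 in control, 6.22, 7.63 and 7.04 in knockout, and 7.37, 6.47 and 5.48 in cold. Tnni1, the slow inhibitory subunit, was not tested and stayed between 4.76 and 4.95. Both fast subunits were lowest on cold replicate 3, and in both the groups overlapped.

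The α-actinin, calsequestrin and myosin-binding protein pairs showed like contrasts between their fast gene and its counterpart. Actn3, the fast-fibre α-actinin that anchors thin filaments in the Z-disc, had 11.54, 12.26 and 11.88 in control, 10.14, 12.35 and 11.49 in knockout, and 12.31, 10.91 and 6.62 in cold. Actn2, the α-actinin found in all fibres, had 5.79, 6.03 and 5.90 in control, 5.66, 5.84 and 5.79 in knockout, and 5.98, 5.84 and 5.67 in cold. Within each group Actn2 kept the array order of Actn3, on a scale of 0.37 log2 units, against 5.73 for Actn3.

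Casq1, which stores calcium in the reticulum of fast fibres, had 9.33, 9.88 and 9.40 in control, 8.09, 9.59 and 9.05 in knockout, and 10.06, 9.05 and 5.50 in cold. Casq2, the form of heart and slow fibres, was not tested and lay between 5.08 and 5.48, with cold replicates 2 and 3 both at 5.48. Casq1 on cold replicate 3 was thus far below its other arrays, and Casq2 was not. Myh7, the slow and cardiac myosin heavy chain, read 4.62 on 8 of 9 arrays and 4.64 on cold replicate 1.

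Mybpc2, the fast form of the myosin-binding protein that brakes the cross-bridges, had 8.50, 9.19 and 8.84 in control, 7.59, 9.68 and 8.66 in knockout, and 9.31, 8.11 and 5.58 in cold. Mybpc1, the slow form, had 5.75, 5.46 and 5.60 in control, 5.21, 5.19 and 5.40 in knockout, and 5.96, 5.50 and 5.23 in cold. The 3 knockout arrays of Mybpc1 were all below the 3 controls, the only contractile gene of the 30 whose groups did not overlap in that comparison. Such separation with knockout lower was seen for 7.99% of all tested genes, and the difference, -0.34 ± 0.18, did not pass (limma adjusted p = 0.401).

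**Figure D2:**
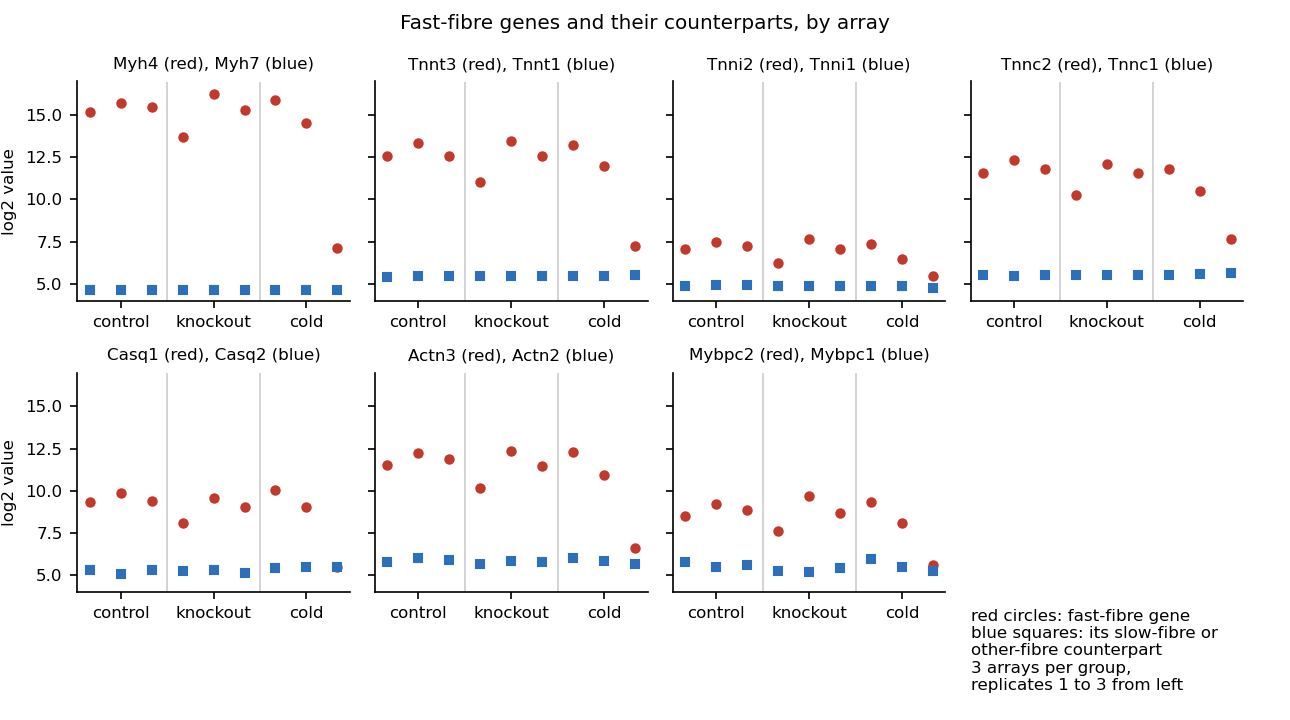
Each panel plots the log2 value of a fast-fibre gene (red circles) and of its slow-fibre or other-fibre counterpart (blue squares) on 9 arrays, 3 per group with replicates 1 to 3 from left. Red points drop on the last cold array, as from 14.56 to 7.12 for Myh4, and blue points stay nearly level.

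Averaged over the 7 isoform pairs in that plot, with each gene first centred on its own mean of 9 arrays, fast minus slow was 0.41, 1.09 and 0.61 in control, -0.72, 1.26 and 0.48 in knockout, and 0.95, -0.18 and -3.90 in cold. Cold replicate 3 was the lowest array for each of the 7 pairs, from -1.31 for Tnni2 and Tnni1 to -7.24 for Myh4 and Myh7. The slow probes read near 5.31, the median row of the table, and whether they could have shown a fall was not tested. Levels of different probes are not set against each other here.

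Drops on cold replicate 3 were larger for brighter genes, which also had more room above the median row at 5.31. Over the 10 tested genes with a mean above 10, cold replicate 3 was below all 8 other arrays for 10 of 10, with a median gap to the nearest of -3.53. Over the 11 genes with a mean from 7 to 10 it was below all others for 11 of 11, with a median gap of -1.19. Over the 9 genes with a mean of 7 or lower it was below all others for 4, with a median gap of 0.01.

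Both light chains and the calcium buffer of fast fibres had the same lowest array. Myl1, an essential light chain of fast myosin, lay between 13.12 and 14.74 on 8 arrays and at 12.02 on cold replicate 3. Mylpf, the regulatory light chain of fast myosin, lay between 8.69 and 10.43 and at 6.54 there. Pvalb, the calcium buffer that speeds relaxation, lay between 8.46 and 10.47 and at 5.65 there. For all 3 genes the gap to the next array, from -1.10 to -2.81, exceeded 1 log2 unit.

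Fast myosins of intermediate type separated less. Myh1, the 2X heavy chain, lay between 6.76 and 9.35 on 8 arrays and at 6.02 on cold replicate 3. Myh2, the 2A heavy chain of oxidative fast fibres, lay between 5.75 and 7.01 and at 5.63. Myoz1, a calcineurin-binding protein of the fast Z-disc, lay between 7.18 and 8.32 and at 6.35. All 3 were lowest on cold replicate 3, by gaps of -0.74, -0.13 and -0.83.

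Genes shared by fibre types ranged from the full drop to none. Ckm, the muscle creatine kinase that recharges ATP, had 11.04, 11.64 and 11.33 in control, 9.82, 11.89 and 11.03 in knockout, and 11.40, 10.36 and 7.44 in cold. Tpm2, β-tropomyosin of the thin filament, read 7.24 on cold replicate 3 and 8.61 to 10.15 elsewhere. Ryr1, the calcium release channel, read 5.76 there and 6.89 to 8.67 elsewhere, and Cacna1s, the voltage sensor that opens it, read 5.68 there and 6.04 to 7.16 elsewhere. All 4 were lowest on cold replicate 3.

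The other Z-disc genes differed in the size of the gap. Myot, myotilin, read 5.0 on cold replicate 3 and 6.19 to 8.99 elsewhere. Des, the intermediate filament desmin that smooth muscle also makes, read 8.27 there and 8.55 to 9.80 elsewhere. Tcap, which caps titin, read 7.15 there and 7.60 to 8.38 elsewhere, and Ldb3, a PDZ-LIM protein of the Z-disc, read 5.68 there and 6.09 to 6.82 elsewhere. These 4 genes were also lowest on that array, but the gap was -0.28 for Des, -0.45 for Tcap and -0.41 for Ldb3, against -1.19 for Myot.

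Mb and Sln had another pattern. Mb, the oxygen store myoglobin, had 5.79, 5.79 and 5.82 in control, 5.58, 5.62 and 5.79 in knockout, and 6.11, 6.03 and 5.79 in cold. It was highest on cold replicates 1 and 2 and lowest on knockout replicates 1 and 2. Sln, sarcolipin, an inhibitor of the calcium pump, was not tested and stayed between 4.98 and 5.32.

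Against this spread, no contractile gene passed between knockout and control. The limma fit over 9 arrays called 0 of 30, where 0.379% of all tested genes passed. At an unadjusted p under 0.05 it also had 0 of 30, against 16.3% of all genes, and the adjusted p ran from 0.401 to 1. The 30 differences had a median of -0.36, with 25 below 0, against 0.02 over all tested genes. Over all 34 genes, tested or not, the median was -0.24. Myh4 differed by -0.37 ± 2.11 (SE, n = 3 arrays per group, limma adjusted p = 0.953) and Acta1 differed by -1.07 ± 1.30 (limma adjusted p = 0.720). The median was 0.04 without knockout replicate 1 and -0.81 without knockout replicate 2.

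Between cold and control most contractile genes had a lower mean in cold, and none passed. The same fit called 0 of 30, where 1.56% of all tested genes passed, and had 0 of 30 at an unadjusted p under 0.05, against 20.4% of all genes. The 30 genes had adjusted p from 0.307 to 0.980. In 0 of 30 did the 3 cold arrays lie wholly below the 3 controls, which 18.2% of all tested genes did. The median difference was -0.93, with 27 below 0, against -0.02 over all tested genes, and -0.80 over all 34. Myh4 differed by -2.94 ± 2.11 (limma adjusted p = 0.451), Atp2a1 by -2.53 ± 1.94 (0.480), Ttn by -2.26 ± 1.44 (0.400) and Acta1 by -2.24 ± 1.30 (0.358). Without cold replicate 3 the median was -0.11, with 19 below 0 and 8 genes on the other side of 0 than before. Then Myh4 differed by -0.23 and Atp2a1 by -0.06, and 0 of 30 passed.

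Those comparisons share the control arrays, and cold against knockout does not use them. Here 0 of 30 genes passed, where 2.42% of all tested genes did. The median difference was -0.56, with 24 below 0, against -0.03 over all genes, and -0.51 over all 34. At an unadjusted p under 0.05 there were 2 genes, against 26.9% of all tested genes: Mb, higher in cold by 0.31 ± 0.09 (limma adjusted p = 0.0947), and Ldb3, at -0.51 ± 0.18 (limma adjusted p = 0.143). In 0 of 30 did the cold arrays lie wholly below the knockout arrays, against 20.2% of all tested genes. Without cold replicate 3 the median was 0.21, with 23 genes above 0 and 17 changed in sign. Over the 3 groups together the F test passed 0 of 30 (1 at an unadjusted p under 0.05), with adjusted p from 0.154 to 0.924, where 2.68% of all genes passed. With the 3 arrays that lay between the others of their group left out, 0 contractile genes and 0 of all genes passed in any of the 3 comparisons.

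**Figure D3:**
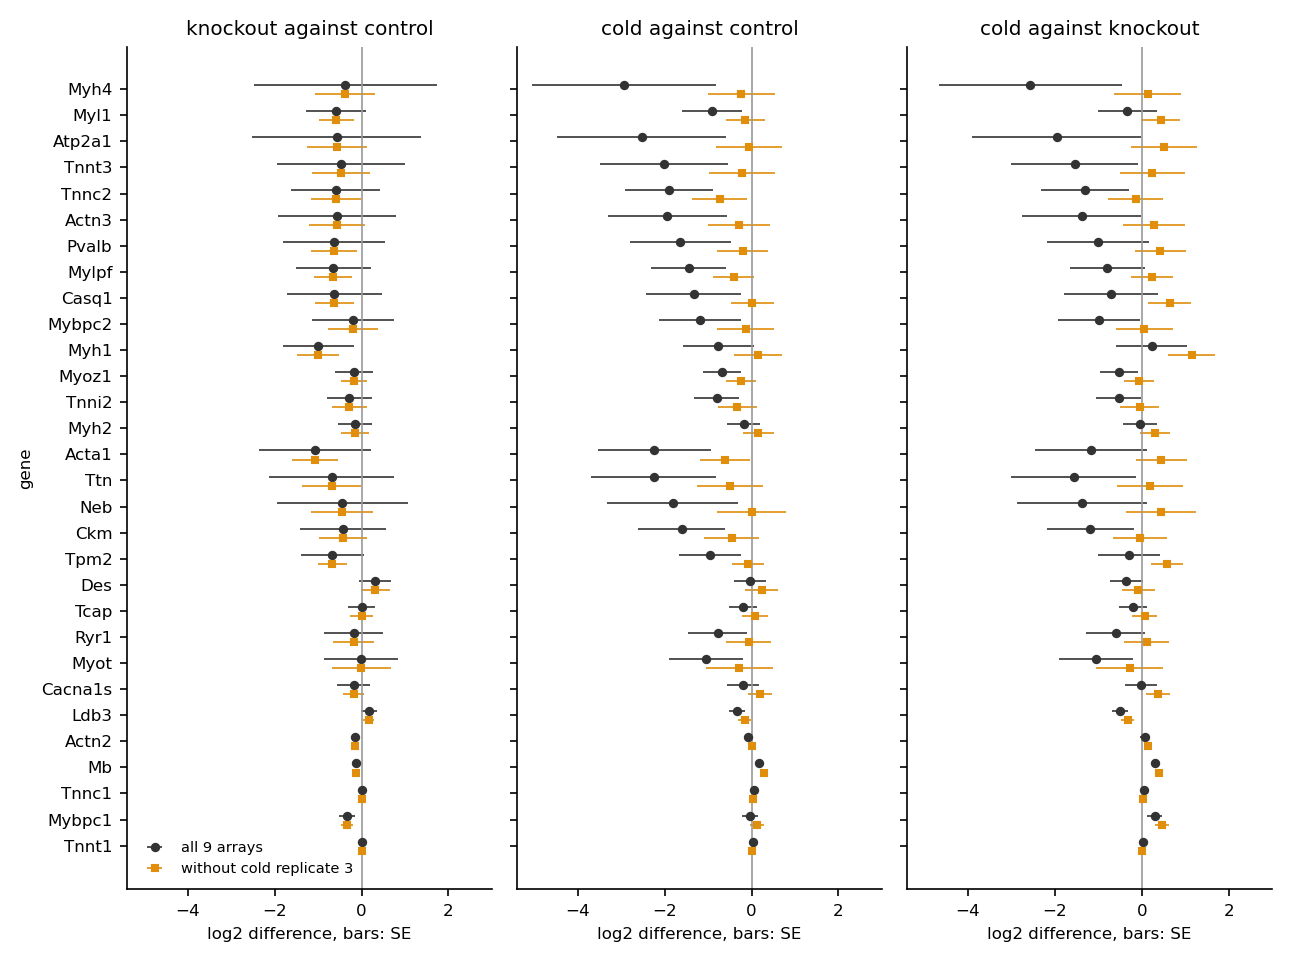
Log2 differences of group means for the 30 tested genes in 3 comparisons, with bars for 1 SE from the limma fit, over all 9 arrays (black circles) and without cold replicate 3 (orange squares). In the comparisons with cold, the black points of bright fast genes such as Myh4 (-2.94 against control) move close to 0 without that array (-0.23).

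Readings far below all other arrays were counted over the whole table. On cold replicate 3, 27 of 16639 genes (0.162%) stood at least 1 log2 unit below all 8 other arrays, and 17 of them were contractile genes described here. A further 4 came from other muscle lists: Pygm, muscle glycogen phosphorylase, at 7.01 against 10.47 to 12.93 elsewhere, the muscle enolase Eno3, the AMP deaminase Ampd1, and Trdn, triadin of the calcium release complex. The other 6 were on none of these lists: Mylk4, Nnat, Mir378c, Klhl31, C4b and Ppp1r3a. The lists are selections of gene names, so a gene outside them may still be one that muscle expresses. Each of the other 8 arrays had 0 to 17 such genes and no contractile gene, but a gene that is lowest on cold replicate 3 cannot be counted on another array. The count was therefore repeated without cold replicate 3, an alternative chosen after the data were seen. Knockout replicate 1 then had 17 such genes, 4 of them contractile (Atp2a1, Myh1, Neb and Pvalb), and the other 7 arrays had 0 to 17 with no contractile gene.

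**Figure D4:**
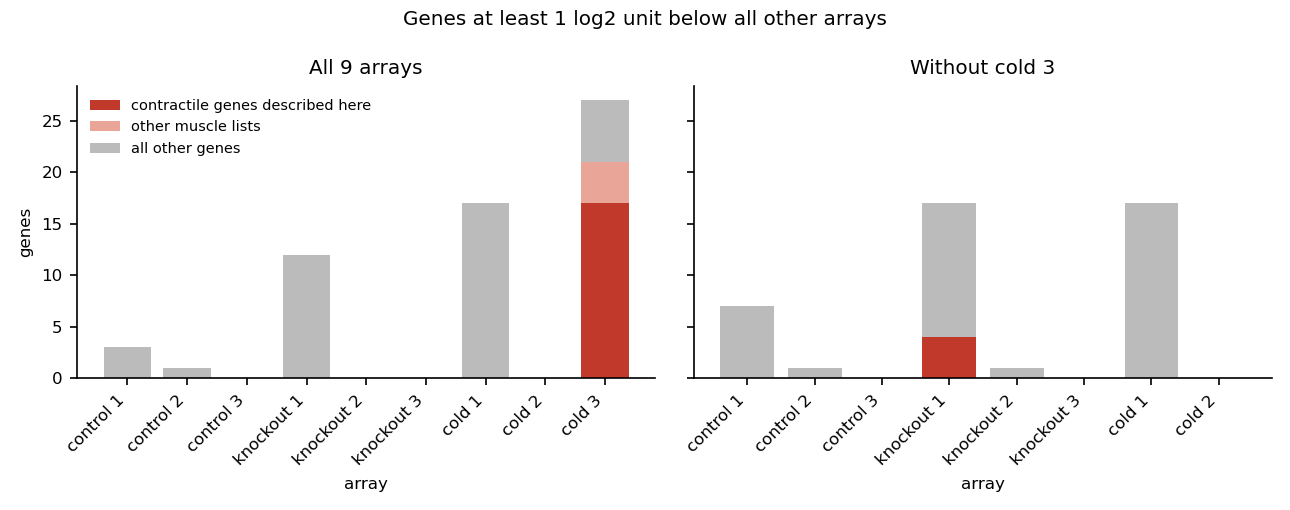
Bars count, for each array, the tested genes at least 1 log2 unit below all other arrays, over all 9 arrays (left) and without cold replicate 3 (right), split into the contractile genes described here, other muscle lists and all other genes. Cold replicate 3 has 27 such genes, of which 17 are contractile, and without it knockout replicate 1 has 17, of which 4 are contractile.

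Averaged as lists, most other muscle genes showed the same array pattern on a smaller scale, and few passed. Levels are given here as the mean over a list of each gene's log2 value minus its own mean of 9 arrays. Muscle energy enzymes (11 of 12 listed were tested) stood at 0.13, 0.27 and 0.19 in control, -0.46, 0.56 and 0.08 in knockout, and 0.42, -0.08 and -1.11 in cold, and 0 of 11 passed in any comparison (at an unadjusted p under 0.05 there were 1 for knockout and 3 for cold, each against control, and 1 for cold against knockout). The largest cold differences among them were -2.05 ± 1.33 for Pygm (limma adjusted p = 0.405) and -1.37 ± 0.87 for Eno3 (0.397). The 3 at an unadjusted p under 0.05 for cold against control were other genes. Aldoa and Gys1 were higher in cold, by 0.83 ± 0.26 (limma adjusted p = 0.151) and 0.59 ± 0.21 (0.190). Phkg1 was lower, at -0.66 ± 0.22 (limma adjusted p = 0.165). Aldoa was highest of the 9 arrays on cold replicate 3, at 12.38, so not every enzyme followed the list mean. Genes of the triad, where excitation meets calcium release (9 of 16), read -0.70 on cold replicate 3 and -0.27 to 0.39 elsewhere, with 0 of 9 passing (0, 0 and 1 at an unadjusted p under 0.05), and Trdn at -1.07 ± 0.89 in cold against control (limma adjusted p = 0.518). Neuromuscular junction and sarcolemma genes (6 of 12) were instead lowest on knockout replicate 1, at -0.36. They read -0.27 on cold replicate 3 and -0.04 to 0.32 elsewhere, with 0 of 6 passing (0, 0 and 1 at an unadjusted p under 0.05). Other sarcomere and Z-disc genes (21 of 31) read -0.59 on cold replicate 3 and -0.32 to 0.32 elsewhere.

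Of those 21 genes 1 passed, Myom3, an M-band protein. It stood at 5.77, 5.87 and 5.89 in control, 5.85, 5.89 and 5.89 in knockout, and 6.15, 6.11 and 6.11 in cold. The cold arrays were all above the others, cold replicate 3 included, unlike the contractile genes. Myom3 rose in cold by 0.28 ± 0.04 against control (limma adjusted p = 0.0318) and by 0.25 ± 0.04 against knockout (limma adjusted p = 0.0387). Both calls ended with a replicate block (limma adjusted p = 0.116 and 0.138) and without any 1 of the cold arrays, and these were not the only losses. With 1 array left out at a time, the call against control was lost in 7 of 9 fits. The call against knockout was lost in 6 of 9. Over all 18 alternatives, Myom3 passed in 9 against control and in 10 against knockout.

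Myogenic factors were mostly too dim to test. Of 10 myogenic and satellite cell factors only Mef2c, which many cell types express, was tested, and it did not pass in any comparison. Pax7, the satellite cell factor, stayed between 4.61 and 4.73, and Myod1, the myogenic master regulator, between 4.14 and 4.56. Neither was lowest on cold replicate 3, nor were Pax3, Myog and Mymk. Myf6 and Myf5, also too dim to test, were lowest there. Myf6 read 3.74 on that array and 4.37 to 5.10 elsewhere, and Myf5 read 4.17 and 4.34 to 4.60. The cardiac isoforms (3 of 8 tested) moved by -0.06 to 0.04 over the 9 arrays. Smooth muscle and mural markers (13 of 14 tested) read between -0.21 and 0.23, with cold replicate 3 at -0.07, and 0 of 13 passed in any comparison (0, 5 and 4 at an unadjusted p under 0.05, in the order above).

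Muscle and thermogenic fat share a set of mitochondrial and lipid-handling genes, and these differed from the contractile genes in their group levels. Averaged as a list, they did not differ from them in array order within groups, though some single genes did. Cox7a1, a cytochrome c oxidase subunit of heart, muscle and brown fat, stood at 9.38, 10.18 and 9.99 in control, 13.55, 14.71 and 14.16 in knockout, and 15.99, 15.73 and 15.30 in cold. Fabp3, a fatty acid carrier of muscle, stood at 6.98, 8.50 and 8.14 in control, 13.21, 17.01 and 16.02 in knockout, and 15.34, 14.90 and 14.29 in cold. In both genes every knockout and cold array was above every control, cold replicate 3 included, where Myh4 was lowest. Within each group, though, both kept the array order of the contractile genes, with control replicate 1, knockout replicate 1 and cold replicate 3 lowest.

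The list of 8 such shared genes read -2.54, -2.08 and -2.25 in control, 0.16, 2.33 and 1.49 in knockout, and 1.21, 0.98 and 0.70 in cold, the same order within groups as the contractile genes. Not every gene kept it: Pdk4 read 15.74, 15.83 and 15.96 in cold, and Ucp3, Ppargc1a and Letmd1 departed from it in control. The order was not particular to genes that muscle expresses. The thermogenic fat list had it too, at -3.02, -2.39 and -2.69 in control, -0.20, 2.54 and 1.68 in knockout, and 1.54, 1.30 and 1.23 in cold. In knockout 5 of 8 rose and in cold 4 of 8 (Cox7a1, Cox8b, Cpt1b and Fabp3), both against control. Cox8b, another muscle and brown fat oxidase subunit, rose by 1.91 ± 0.26 in knockout and 2.77 ± 0.26 in cold (limma adjusted p = 0.0463 and 0.00826). Cpt1b, which passes fatty acids into mitochondria, rose by 4.87 ± 0.51 and 4.25 ± 0.51 (limma adjusted p = 0.0272 and 0.0140). All 8 differences stayed above 0 under every alternative, but the calls did not all hold. In knockout, 0 of 8 passed with a replicate block, with only the 2 groups compared, without the 3 arrays that lay between the others, or without control replicate 1 or 3, knockout replicate 3 or cold replicate 2. There 1 passed (Cox7a1) without cold replicate 1 or 3 or with no filter, 2 without knockout replicate 2, and 8 without knockout replicate 1. In cold, 2 passed (Cox7a1 and Cox8b) with the block or without control replicate 1 or cold replicate 1 or 3, 1 (Cox7a1) without control replicate 3 or cold replicate 2, and 0 without the 3 arrays between the others.

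**Figure D5:**
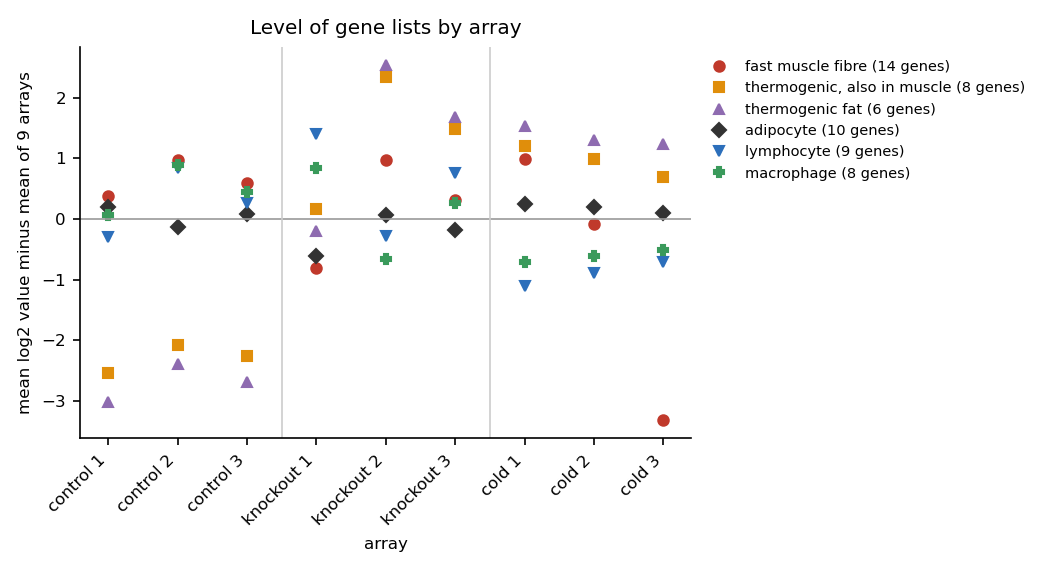
Points give the mean log2 value of 6 gene lists on each array, each gene centred on its mean of 9 arrays. Fast-fibre genes (red circles) drop to -3.32 on cold replicate 3, where thermogenic lists stay above 0, and on knockout replicate 1 the fast-fibre and adipocyte lists are low while the lymphocyte and macrophage lists are high.

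The plot of list levels shows part of what else differed on the low arrays. On cold replicate 3 the fast-fibre list read -3.32, against 0.99 and -0.08 on the other cold arrays. There the adipocyte list read 0.10 (0.25 and 0.21 on the other 2), the thermogenic fat list 1.23 (1.54 and 1.30), the macrophage list -0.52 (-0.71 and -0.61) and the lymphocyte list -0.71 (-1.10 and -0.89). On knockout replicate 1 the fast-fibre list read -0.81, against 0.97 and 0.31 on the other knockout arrays. On that array the adipocyte list was -0.61 (0.07 and -0.18), the thermogenic fat list -0.20 (2.54 and 1.68), the macrophage list 0.83 (-0.66 and 0.26) and the lymphocyte list 1.40 (-0.28 and 0.76). Of these lists 10 adipocyte, 8 macrophage and 9 lymphocyte markers were tested and 0 passed in any comparison. Up to 3, 4 and 6 of them had an unadjusted p under 0.05, against 16.3% to 26.9% of all tested genes. Wholly lower in cold than in control were 7 macrophage and 8 lymphocyte markers, against 18.2% of all genes. In the fit over 9 arrays, 3 of 6 thermogenic fat markers rose in knockout and 5 in cold against control, where 0.379% and 1.56% of all genes passed. In cold against knockout 1 rose, Kng2, by 2.31 ± 0.38 (limma adjusted p = 0.0334). Kng2 was also 1 of the 5 in cold against control, and it was listed with earlier results of these data known. Lists outside the plot differed on these arrays too. The endothelial list read -0.68 on knockout replicate 1 (0.18 and -0.21 on the other knockout arrays). The fibroblast and tendon list read -0.44 on cold replicate 3 (-0.05 and -0.16 on the other cold arrays). Of these, 0 of 8 and 0 of 6 tested markers passed in any comparison. The part of all these cell types in the contractile gene levels was not tested.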

How the data were processed

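Total RNA of inguinal fat pads was measured on 9 Affymetrix Mouse Transcriptome Array 1.0 arrays, 1 per sample. The log2 values were deposited by the authors and were made with Affymetrix Expression Console, per the submitters' processing notes. On their normalization and build, the sources used here give nothing. Values ran from 1.84 to 19.93, with no true zero. Arrays have no read depth, and 3 per group limit the precision.

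Of 72688 rows, 30604 had 1 gene symbol and 2146 several in the platform annotation, and 827 symbols were updated through RefSeq. The brightest row stood for a gene. Rows with a mean under the median row mean, 5.31, were left out. limma 3.58.1 in R 4.3.3 (lmFit, eBayes, 3 group means, two-sided) was fitted to 16639 genes, with Benjamini-Hochberg adjustment and a threshold of 0.05, and was checked on simulated data. Genes, lists and the rule for naming were chosen with earlier results of these data known. The rule gives every array for both genes of 7 fast and slow pairs, the 6 genes widest over 9 arrays and any gene past the threshold, and ranges for the rest. From the other muscle lists it names up to 3 genes past the threshold or the largest differences. Some genes, such as Aldoa and Pdk4, were named outside this rule to show the limits of a list level. Motif matches were counted on both strands. Over all tested genes, same-numbered arrays showed no shared deviation in the same direction (correlations of deviations from -0.462 to 0.0863), which cannot exclude pairing. The 14 fast genes differed from this between control and knockout, where replicate 1 was lowest and replicate 2 highest in both groups. In cold their order was another, with replicate 1 highest and replicate 3 lowest. Whether this reflects pairing was not tested. Replicate numbers were used as a block only in an alternative. The alternatives tried were no filter, mean of rows, array centring, quantile normalization, only the groups compared, a replicate block, trend and robust variances, array weights and leaving out arrays.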

Additional observations from a re-analysis of the deposited data

How the results depend on the processing

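The count of contractile genes called was 0 in each comparison and in the F test under all alternatives but array weights. With array weights 9 passed in knockout against control, 4 in cold against control, 4 in cold against knockout and 10 in the F test. That fit leaned very unevenly on 1 array, so its calls are not relied on. It gave knockout replicate 3 a weight of 1659, against 0.081 to 11.69 for the other arrays. It called 11755, 8946 and 9904 of all genes. The labels do not say if equal replicate numbers pair the samples. With a replicate block 0 contractile genes passed in every comparison, while calls over all genes went from 63, 260 and 402 to 1, 42 and 36. All-gene calls also moved without the filter (16, 131 and 218) and with only the 2 groups compared (0, 1347 and 362).

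With 1 array left out at a time, 0 passed in all comparisons, and the median difference ranged from -0.81 to 0.04 in knockout against control, -1.53 to -0.11 in cold against control and -1.07 to 0.21 in cold against knockout. Signs turned without knockout replicate 1 in the first comparison, where Myh4 ranged from -0.95 to 0.32, Atp2a1 from -1.13 to 0.12 and Ckm from -0.91 to 0.12. In the last they turned without cold replicate 3, where Myh4 ranged from -4.26 to 0.14, Atp2a1 from -3.54 to 0.51 and Acta1 from -2.25 to 0.45. Calls of the thermogenic genes shared with muscle, rerun under these alternatives after the data were seen, ranged from 0 to 8 of 8 in both comparisons with control, the 8 in cold coming from array weights. Fast minus slow on cold replicate 3 stayed between -3.90 and -3.79 under the 3 alternatives run. Detection calls were not used here, so how far readings near 5.31 lay above background is not known.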
